A study of Homo sapiens with 6 samples.

Results

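The transcripts of 10 genes through which cells detect foreign or misplaced nucleic acid were followed in T98G cells, an established human glioblastoma line: the RNA sensors DDX58 (RIG-I, listed as RIGI in newer annotation), IFIH1 (MDA5), DHX58 (LGP2), TLR3 and ZBP1, the DNA sensors CGAS and IFI16, the adaptors MAVS and STING1 (TMEM173 in GENCODE 29), and the cytokine gene IFNB1. They were taken from a list of symbols, and each of the 10 matched 1 of the 60483 gene ids of the count tables. Poly(A) RNA had been sequenced from 6 libraries, 2 of each of 3 groups. NT cells were left untreated. The shSRPK1 cells were transiently transfected with Lipofectamine 2000 and a pLKO.1 plasmid carrying a short hairpin RNA against SRPK1, and the oeSRPK1 cells with a pcDNA3.1 plasmid carrying the full-length coding sequence of this kinase, which phosphorylates splicing factors. The series asked what less or more SRPK1 does to the transcripts of these cells. No library of cells transfected with an empty or unrelated plasmid was used here, so against NT the plasmid, the lipid reagent and the change in SRPK1 cannot be told apart. The hairpin sequence and the time from transfection to harvest are not given in the sources used here.

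RIG-I and MDA5 are helicases that bind double-stranded or 5′-triphosphate RNA in the cytosol and then engage MAVS on mitochondria, while LGP2 binds RNA but lacks the signalling domains of its relatives. TLR3 reads double-stranded RNA in endosomes through the adaptor TICAM1, cGAS answers cytosolic DNA by making a cyclic dinucleotide that activates STING, IFI16 binds DNA in nucleus and cytosol, and ZBP1 binds left-handed nucleic acid and can start necroptosis. MAVS, STING and TICAM1 lead to the kinases TBK1 and IKKε and to the factors IRF3, IRF7 and NF-kB, which turn on IFNB1, and interferon in turn raises many of the sensor genes. These are textbook roles and not results of the libraries described here.

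The libraries held between 3891549 (oeSRPK1 2) and 22691215 (oeSRPK1 1) reads in genes. Levels are given as normalised CPM, that is read counts scaled to a common library size by TMM, and 3 reads, taken as the floor of detection, stood for 0.135 CPM in the deepest library and 0.776 CPM in the shallowest. SRPK1 itself stood at 153 and 140 CPM in NT, 113 and 140 CPM in shSRPK1 and 190 and 168 CPM in oeSRPK1. Its log2 fold change against NT was -0.21 ± 0.14 (SE) in shSRPK1 (edgeR, adjusted p 0.360) and 0.29 ± 0.14 in oeSRPK1 (adjusted p 0.175), and oeSRPK1 exceeded shSRPK1 by 0.50 ± 0.14 (adjusted p 0.0377). The shSRPK1 libraries differed more from each other (chi-square per gene 45.5) than those of NT (4.46) or oeSRPK1 (8.02). Of 10 glioma and mesenchymal markers, SOX2 and S100B had 0 reads and GFAP had 1 read in all libraries together, while the summed level of the list ran from 5512 to 8605 CPM. VIM, CD44 and FN1 made up most of that sum, at 1827, 2529 and 1126 CPM in NT 1. NES and OLIG2 stood at 0.874 and 1.17 CPM in that library. Leukocyte markers summed to between 1.59 and 8.01 CPM with 6 of 10 at 0 reads, PTPRC among them, and plasmacytoid dendritic cell markers reached at most 0.0450 CPM with 4 of 5 at 0. Transcripts of 9 matched skeletal muscle markers summed to 0.680 and 1.55 CPM in NT, 1.43 and 11.7 CPM in shSRPK1 and 201 and 2393 CPM in oeSRPK1. The muscle sum differed 11.9-fold between the 2 oeSRPK1 libraries. The levels of the sensor genes differed at most 1.44-fold (ZBP1) between them. The source of the muscle transcripts, and whether it bears on the sensor levels, was not tested. In bulk libraries, more cells expressing a gene and more RNA per cell cannot be told apart.

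Both transfected groups carried more RNA of several sensors than untreated cells, and MAVS stayed near its untreated level. Against NT, DDX58, IFIH1, DHX58 and IFI16 rose in shSRPK1, and these 4 plus TLR3 and STING1 rose in oeSRPK1, where ZBP1 was called as well from few reads. 8 of the 10 genes passed the filter on low counts, ZBP1 through its reads in oeSRPK1, and CGAS and IFNB1 did not. Of these 8, edgeR called 4 higher in shSRPK1 than in NT (adjusted p under 0.05), where 5.43% of the 14732 genes tested were called higher and 3.75% lower. It called 7 higher in oeSRPK1 than in NT, where 11.2% of tested genes were called higher and 9.45% lower, and 3 higher in oeSRPK1 than in shSRPK1, where 11.5% were called higher and 11.3% lower. With all 6 libraries fitted, none of the 8 was called lower in the 3 comparisons by edgeR, DESeq2 or limma-voom, and 0 were lower at an unadjusted p under 0.05. Their median log2 fold change was 1.50, 1.80 and 0.43 in these comparisons, beside medians of 0.01, -0.00 and -0.00 over all genes tested. Both shSRPK1 libraries lay above both NT libraries for 6 of the 8 (28.8% of all genes tested), both oeSRPK1 libraries above both NT libraries for 8 (35.9%), and both oeSRPK1 libraries above both shSRPK1 libraries for 4 (31.8%). Since these 8 include a gene that entered through the group where it is high, the counts describe them and carry no test.

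**Figure D1:**
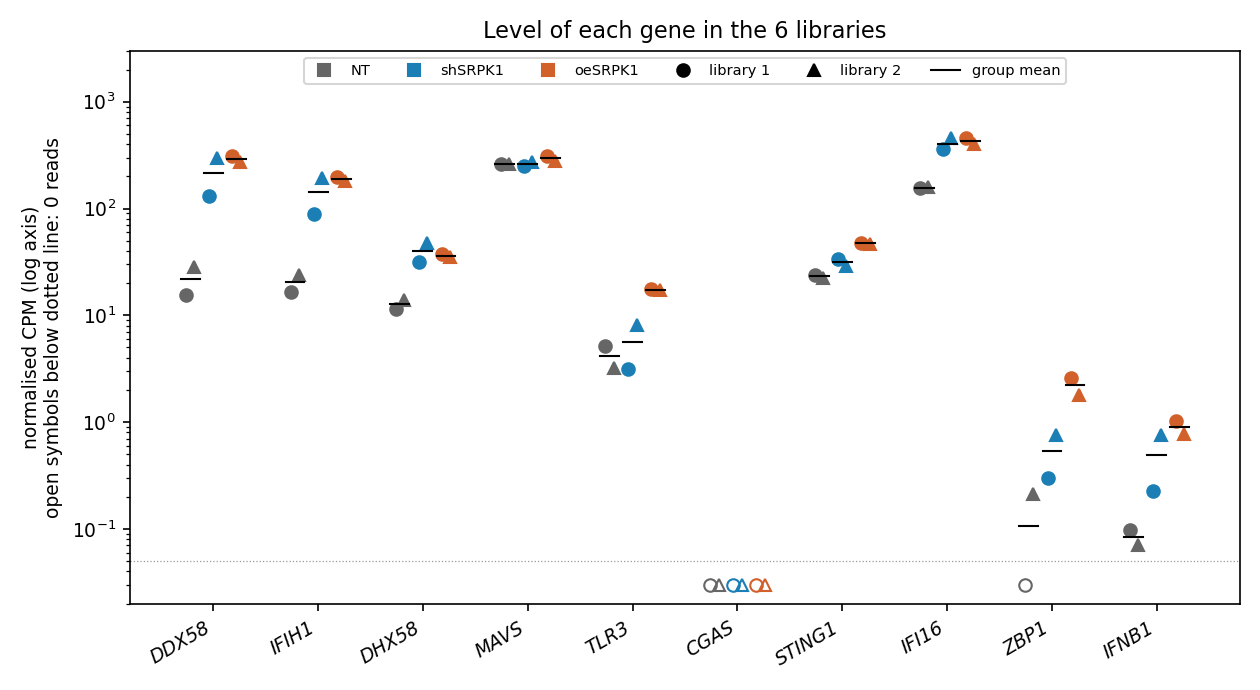
Normalised CPM on a log axis for the 10 genes, with 1 symbol per library (circle, library 1; triangle, library 2), grey for NT, blue for shSRPK1 and orange for oeSRPK1, and a black bar at the mean of 2 libraries; open symbols under the dotted line are libraries with 0 reads. DDX58 and IFIH1 lie 6.90 to 13.3-fold above NT in the transfected groups, MAVS lies between 252 and 311 CPM in all 6 libraries, and CGAS is at 0 reads throughout.

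DDX58 (ENSG00000107201.8, GRCh38 chromosome 9, 32455705 to 32526324, minus strand), which encodes RIG-I, stood at 15.4 and 28.1 CPM in the NT libraries, at 131 CPM in shSRPK1 1 but 299 CPM in shSRPK1 2, and at 312 and 272 CPM in the oeSRPK1 libraries. Every transfected library lay above both NT libraries, and the 2 shSRPK1 libraries differed 2.29-fold from each other, so that shSRPK1 2 fell between the oeSRPK1 libraries. The gene rose 9.78-fold in shSRPK1 (edgeR adjusted p 0.0247, 95% interval of the fold 4.07 to 23.5) and 13.3-fold in oeSRPK1 (5.46 to 32.5, adjusted p 0.00923). IFIH1 (ENSG00000115267.5, chromosome 2, 162267079 to 162318703, minus strand), the MDA5 gene, followed the same order, with 16.7 and 24.1 CPM in NT, 89.3 and 194 CPM in shSRPK1 and 196 and 181 CPM in oeSRPK1. NT and the transfected groups did not overlap, and shSRPK1 1 was again the lowest transfected library. IFIH1 rose 6.90-fold (3.45 to 13.8, adjusted p 0.0197) in shSRPK1 and 9.19-fold (4.55 to 18.5, adjusted p 0.00654) in oeSRPK1.

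DHX58 (ENSG00000108771.11, chromosome 17, 42101404 to 42112733, minus strand), the LGP2 gene, was measured at 11.4 and 13.9 CPM in NT, 31.5 and 47.9 CPM in shSRPK1 and 37.3 and 34.9 CPM in oeSRPK1. Its rise was smaller than that of its relatives and placed shSRPK1 2 above both oeSRPK1 libraries. The fold was 3.12 (2.21 to 4.40, edgeR adjusted p 0.00796) in shSRPK1 and 2.86 (2.01 to 4.05, adjusted p 0.00401) in oeSRPK1. The helicase calls leaned on both NT libraries. Calls against NT over all genes also fell steeply without an NT library, so such a loss is not particular to these 3 genes. The same holds for the genes described below whose calls against NT were lost without an NT library. Without NT 1 the log2 fold changes in shSRPK1 were 2.93, 2.55 and 1.51 for DDX58, IFIH1 and DHX58 with adjusted p of 0.196, 0.202 and 0.148, and in oeSRPK1 3.37, 2.96 and 1.37 with adjusted p of 0.0624, 0.0643 and 0.0618. Without NT 2 the 3 shSRPK1 calls were lost as well (3.79, 3.08 and 1.80, adjusted p 0.101, 0.105 and 0.0709), and without oeSRPK1 1 that of DHX58 in oeSRPK1 (1.43, adjusted p 0.0838). Leaving out shSRPK1 2 kept the shSRPK1 calls and brought the fold of DDX58 to 5.90 and that of IFIH1 to 4.33. Fitting only NT and shSRPK1 put all 3 just past the threshold (adjusted p 0.0530, 0.0530 and 0.0535). Fitting all genes without a filter also ended the DDX58 calls (adjusted p 0.119 in shSRPK1 and 0.0728 in oeSRPK1).

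Stretches before the start sites of these genes were read from RefSeq (GRCh38.p14), which matched 6 of the 10 genes: DDX58, IFIH1, MAVS, TLR3, IFI16 and IFNB1. The 250 bases before each start were searched on both strands for the core of the interferon-stimulated response element, GAAANNGAAA (bound by interferon regulatory factors), and for the NF-kB motif. Of 35093 promoters of this length, 3.02% held the first and 9.95% the second. IFIH1 held 3 matches to the first motif and 1 to the NF-kB motif. The first pair of them overlapped, on the strand opposite to the gene, and are shown in capitals, followed by the third match, which lies partly in the first exon of GENCODE 29; both stretches read 5′ to 3′ on the minus strand, in the direction of the gene.
IFIH1, chr2:162318816-162318855: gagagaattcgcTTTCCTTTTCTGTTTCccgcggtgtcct
IFIH1, chr2:162318696-162318717: gagaagagaatcGAAACAGAAA
The overlapping matches covered the bases from 159 to 144 before the start. DDX58 held none of the first motif in this window and 1 NF-kB match, which overlaps an exon of GENCODE 29. Its stretch (32526197 to 32526446) lies partly inside the gene, which starts at 32526324 in GENCODE 29. Fewer than 250 bases before that annotated start were therefore searched. MAVS and both entries of IFI16 held neither motif. Both IFI16 stretches lie inside the gene as annotated in GENCODE 29, so the bases before its annotated start were not searched. A match describes letters only, and none of these stretches was assayed in these libraries.

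TLR3 (ENSG00000164342.11, chromosome 4, 186069152 to 186088069, plus strand), the endosomal receptor for double-stranded RNA, separated the 2 transfected groups. It stood at 5.15 and 3.18 CPM in NT, 3.17 and 8.03 CPM in shSRPK1 and 17.5 and 17.3 CPM in oeSRPK1, the last from 390 and 67 reads. NT and shSRPK1 overlapped, and both oeSRPK1 libraries lay above every other library. TLR3 rose 4.25-fold in oeSRPK1 against NT (2.13 to 8.49, edgeR adjusted p 0.0169). In shSRPK1 the fold was 1.34 (0.651 to 2.77, adjusted p 0.569), and it depended on the library: the log2 fold change was -0.36 (adjusted p 0.396) without shSRPK1 2 and 0.98 without shSRPK1 1 (adjusted p 0.00755), with adjusted p from 0.00755 to 0.949 over 13 alternatives. The oeSRPK1 call was lost without NT 1, NT 2, oeSRPK1 1 or oeSRPK1 2, at log2 fold changes of 2.45, 1.75, 2.04 and 2.10 (adjusted p 0.0832, 0.134, 0.140 and 0.0635). TICAM1 (TRIF), the adaptor of TLR3, was at 10.0 and 11.4 CPM in NT, 9.89 and 9.95 CPM in shSRPK1 and 17.2 and 20.4 CPM in oeSRPK1. It rose by 0.79 ± 0.17 on the log2 scale in oeSRPK1 against NT (adjusted p 0.0178), and its difference in shSRPK1 was -0.12 ± 0.17 (adjusted p 0.699).

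The TLR3 promoter held neither the interferon-stimulated core nor the NF-kB motif in the 250 bases before its start. The 300 bases up to and past the start were then searched instead, a window chosen after seeing the data. In it 3.58% of promoters held the core and TLR3 had 1 match. This match spans the start given by RefSeq and lies inside the gene as annotated in GENCODE 29. It is shown in capitals on the plus strand, where the core reads as its reverse complement.
TLR3, chr4:186069142-186069171: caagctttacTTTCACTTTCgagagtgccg
DDX58, MAVS, IFI16 and IFNB1 gained no match in the longer window. 

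ZBP1 (ENSG00000124256.13, chromosome 20, 57603846 to 57620576, minus strand), the sensor of left-handed nucleic acid, was close to the floor outside oeSRPK1. It had 0 and 3 reads in NT, 4 and 8 reads in shSRPK1 and 58 and 7 reads in oeSRPK1, or 0 and 0.212, 0.302 and 0.765, and 2.61 and 1.81 CPM. The oeSRPK1 libraries were the highest, and the groups did not overlap. From the summed reads, oeSRPK1 carried 20.3 times the NT level (65 against 3 reads, 95% interval 6.65 to 101, counting error only). Because ZBP1 passed the filter through this group, the edgeR call (adjusted p 0.00931) is a description and supports nothing further. The ratio of shSRPK1 to NT was 4.13 (12 against 3 reads, 1.11 to 22.8), which did not pass (adjusted p 0.208). The oeSRPK1 call was lost without NT 1, NT 2 or oeSRPK1 1 (fitted log2 fold changes 3.39, 7.81 and 3.74, adjusted p 0.0864, 0.0518 and 0.175), the second of these against an NT library with 0 reads. Of the 6 necroptosis genes downstream of ZBP1, 5 could be tested and 0 were called in shSRPK1 against NT, with 2 higher and 1 lower at an unadjusted p under 0.05 and 0 called by DESeq2 or limma-voom. Over all genes tested 5.43% were called higher and 3.75% lower, so a count of 0 among 5 says nothing particular of this list. In oeSRPK1 CASP8, a protease that restrains necroptosis, rose by 0.56 ± 0.12 (adjusted p 0.0168). It was the 1 of the 5 that edgeR called there, where 11.2% of all genes were called higher. Between the transfected groups edgeR called 1 of the 5, RIPK1, higher in oeSRPK1 by 0.73 ± 0.12 (adjusted p 0.00738), beside 11.5% of all genes. The kinase RIPK3 had 0 reads in all 6 libraries, and 11% of its exon bases are shared with another annotated gene. MLKL, the pore-forming effector, stood at 15.7 and 14.4 CPM in NT, 23.6 and 18.7 CPM in shSRPK1 and 22.4 and 21.2 CPM in oeSRPK1, and missed the threshold (adjusted p 0.0942 and 0.0530).

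IFI16 (ENSG00000163565.17, chromosome 1, 158999968 to 159055155, plus strand) was the one with reads of the DNA sensors IFI16 and CGAS. It stood at 156 and 158 CPM in NT, 357 and 453 CPM in shSRPK1 and 453 and 401 CPM in oeSRPK1. All transfected libraries lay above both NT libraries, and the transfected groups overlapped. IFI16 rose 2.58-fold in shSRPK1 (2.03 to 3.29, edgeR adjusted p 0.00433) and 2.72-fold in oeSRPK1 (2.14 to 3.47, adjusted p 0.00124). The call in oeSRPK1 held in 13 of 13 alternatives, with log2 fold changes from 1.32 to 1.53 and adjusted p up to 0.0362. That in shSRPK1 was lost without NT 1 (1.36, adjusted p 0.108) and without NT 2 (1.38, adjusted p 0.0720).

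CGAS (ENSG00000164430.14, chromosome 6, 73413515 to 73452276, minus strand), the enzyme that makes the second messenger of the DNA pathway, had 0 reads in all 6 libraries. With 0 of 74551700 reads, up to 3 reads or 0.0402 CPM over the 6 libraries would be allowed by counting error. In GENCODE 29, 180 of its 4155 exon bases (4.33%) are shared with DDX43 on the other strand, and DDX43 also had 0 reads. MTO1, its neighbour on the other side, had 202, 227, 158, 174, 494 and 88 reads. Of 19645 protein-coding genes, 3700 (18.8%) had 0 reads in every library, so a 0 of this kind was common. Whether CGAS is silent in these cells or was lost in alignment or counting was not tested.

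MAVS (ENSG00000088888.16, chromosome 20, 3846799 to 3876123, plus strand), the mitochondrial adaptor of RIG-I and MDA5, was at 263 and 261 CPM in NT, 252 and 272 CPM in shSRPK1 and 311 and 277 CPM in oeSRPK1. NT lay within the range of shSRPK1, and both oeSRPK1 libraries were slightly above the other 4. The fold against NT was 0.999 in shSRPK1 (0.824 to 1.21, edgeR adjusted p 0.993) and 1.12 in oeSRPK1 (0.926 to 1.36, adjusted p 0.360). The upper ends of these intervals lie under the lower ends of those of the 3 helicases.

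STING1 (ENSG00000184584.11, chromosome 5, 139475534 to 139482935, minus strand), the adaptor of the cGAS pathway, was lowest in NT, intermediate in shSRPK1 and highest in oeSRPK1. It stood at 23.9 and 22.3 CPM in NT, 33.7 and 28.9 CPM in shSRPK1 and 48.0 and 46.3 CPM in oeSRPK1, and no groups overlapped. STING1 rose 2.05-fold in oeSRPK1 (1.66 to 2.53, edgeR adjusted p 0.00261), a call lost without NT 2 (log2 fold change 0.98, adjusted p 0.0506) and without oeSRPK1 1 (0.97, adjusted p 0.0648). In shSRPK1 the fold was 1.36 (1.10 to 1.68), which missed the threshold (adjusted p 0.0740) and passed it only without shSRPK1 2 (0.55, adjusted p 0.00332).

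**Figure D2:**
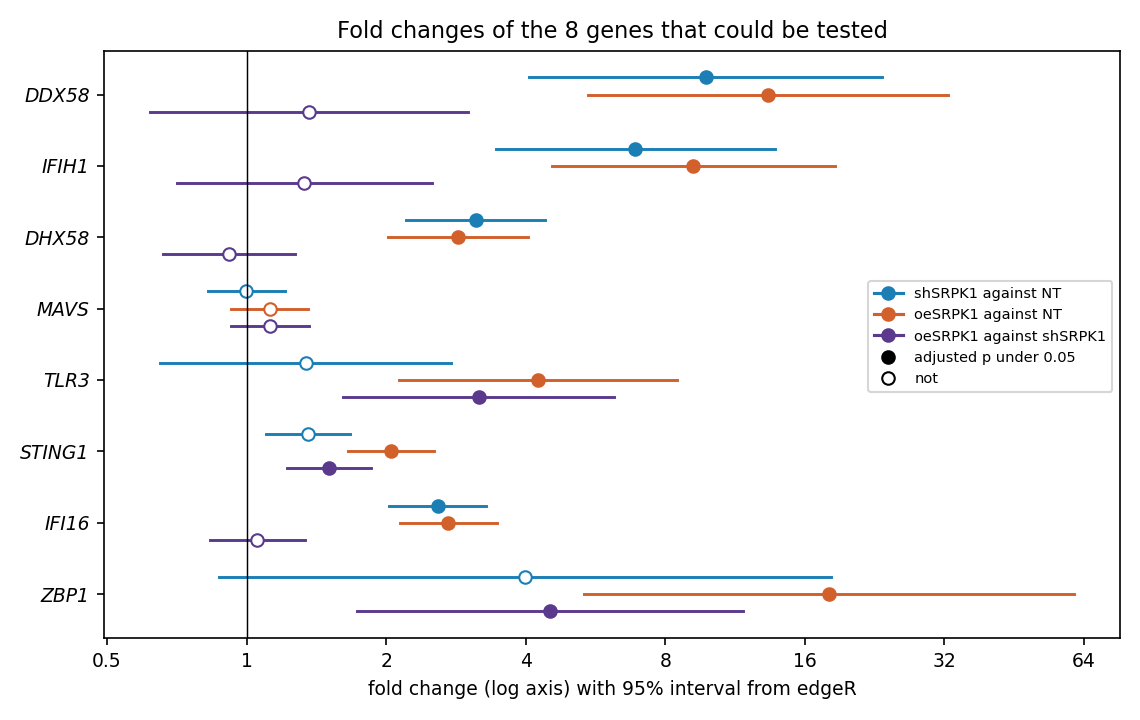
Fold changes on a log axis with 95% intervals from edgeR for the 8 genes that could be tested, blue for shSRPK1 against NT, orange for oeSRPK1 against NT and purple for oeSRPK1 against shSRPK1; filled symbols have an adjusted p under 0.05. The folds of DDX58 and IFIH1 against NT are 6.90 to 13.3, MAVS stays at 0.999 to 1.12, and TLR3, STING1 and ZBP1 are the filled purple symbols; the ZBP1 folds are fitted values on few reads.

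IFNB1 (ENSG00000171855.6, chromosome 9, 21077105 to 21077963, minus strand), the interferon gene at the end of these pathways, was detected at the edge of what the depth allows. Its reads were 1 and 1 for NT, 3 and 8 for shSRPK1 and 23 and 3 for oeSRPK1, or 0.0971 and 0.0706, 0.227 and 0.765, and 1.03 and 0.776 CPM. Both transfected groups lay above NT in each library, and 3 reads equal the floor. From the summed reads, shSRPK1 carried 5.68 times the NT level (11 against 2 reads, 95% interval 1.24 to 52.7) and oeSRPK1 12.2 times (26 against 2 reads, 3.05 to 106), with counting error alone in the intervals. IFNB1 was under the filter of the edgeR fit. In the edgeR fit without a filter, over 28529 genes, oeSRPK1 passed against NT (log2 fold change 3.35 ± 0.93, adjusted p 0.00401) and shSRPK1 did not (2.40 ± 1.03, adjusted p 0.148). These values rest on the few reads given above and are a description only.

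The enhancer just upstream of IFNB1 is a standard example of sites for ATF2 and JUN, interferon regulatory factors and NF-kB packed side by side. Its RefSeq sequence is shown on the minus strand, 5′ to 3′, with the NF-kB match found by the search in capitals, 66 to 57 bases before the start.
IFNB1, chr9:21077987-21078053: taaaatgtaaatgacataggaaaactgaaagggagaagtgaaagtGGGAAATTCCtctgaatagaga
The strict core GAAANNGAAA was not found in the 250 bases before IFNB1, which draws nothing about the factors that bind there.

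Among 20 other interferon ligands, 16 had 0 reads in every library, including the type I alpha, omega and kappa genes and IFNG. The alpha genes are near copies of one another, and reads that align to several places, 11.95% to 13.1% of each library's total, were not counted in genes. IFNE, a type I interferon known from epithelium, had 4 and 2 reads in NT, 22 and 32 reads in shSRPK1 and 21 and 3 reads in oeSRPK1. IFNE passed the filter through its reads in shSRPK1, the group where it is high, so its edgeR value there (log2 fold change 3.18 ± 0.58, adjusted p 0.0203, not called by DESeq2) is a description only. IFNL1, a type III interferon, had 0 and 0 reads in NT, 3 and 6 reads in shSRPK1 and 25 and 10 reads in oeSRPK1, and it passed the filter through oeSRPK1, so the edgeR call of oeSRPK1 over an NT group with 0 reads (adjusted p 0.0120) is likewise a description. Its close relatives IFNL2 and IFNL3 had no more than 17 reads in any library and were not tested, and reads of these 3 can be split or lost among them.

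**Figure D3:**
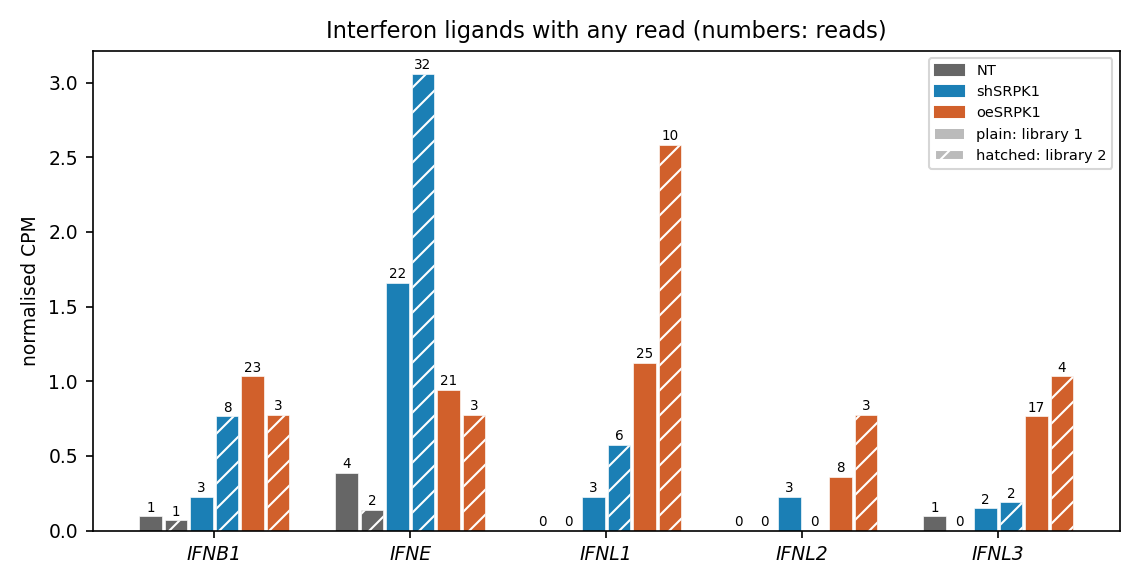
Normalised CPM of IFNB1 and the other 4 interferon ligands with any read, as bars per library (plain, library 1; hatched, library 2) in NT (grey), shSRPK1 (blue) and oeSRPK1 (orange), with the read count above each bar. IFNE is highest in shSRPK1, the lambda genes in oeSRPK1, and oeSRPK1 2 rests on 3 to 10 reads for each gene.

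Set directly against each other, the transfected groups differed in TLR3 and STING1, each higher in oeSRPK1 in 2 of 2 libraries. TLR3 was 3.17-fold higher (1.62 to 6.21, edgeR adjusted p 0.0299) and STING1 1.51-fold (1.22 to 1.86, adjusted p 0.0174). ZBP1, admitted by its reads in oeSRPK1, is given as a description: 4.92 times higher by summed reads (65 against 12, 2.63 to 10.0, adjusted p 0.0362 in edgeR). DDX58 and IFIH1 did not pass, with folds of 1.36 (0.620 to 3.0, adjusted p 0.513) and 1.33 (0.708 to 2.51, adjusted p 0.456), intervals that span differences in either direction. For IFI16 the fold was 1.05 (0.833 to 1.34, adjusted p 0.737), for DHX58 0.916 (0.659 to 1.27, adjusted p 0.686) and for MAVS 1.12 (0.927 to 1.36, adjusted p 0.339). Of these, 2 passed when 1 library was left out: without shSRPK1 1 DHX58 was called lower in oeSRPK1 (log2 fold change -0.43, adjusted p 0.0201), and without shSRPK1 2 IFIH1 was called higher (1.04, adjusted p 7.81e-05). The 3 calls were all lost when NT 1, NT 2, oeSRPK1 1 or oeSRPK1 2 was left out or only the 4 libraries compared were fitted. With only those 4 libraries, 1505 of all genes were called, against 3361 in the fit to all 6. Calls over all genes also fell without NT 1 and without NT 2, so these losses are not particular to the 3 genes. Without oeSRPK1 1 the adjusted p were 0.184, 0.181 and 0.367 for TLR3, STING1 and ZBP1, and without oeSRPK1 2 they were 0.0922, 0.0794 and 0.0888. Without NT 1 they were 0.0547, 0.0556 and 0.0584, and without NT 2 0.0567, 0.0549 and 0.0627. Leaving out shSRPK1 2 raised the fold of TLR3 to 5.34 and that of ZBP1 to 7.39, and leaving out shSRPK1 1 lowered that of ZBP1 to 2.99 (adjusted p 0.0631).

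Per length, as RPKM (CPM divided by the kilobases of GENCODE 29 exon), the order of the genes changed between untreated and transfected cells. In NT, IFI16 at 29.6 ± 0.323 (SD, n = 2) and MAVS at 22.3 ± 0.117 stood above STING1 at 6.00 ± 0.288, DDX58 at 5.00 ± 2.06, IFIH1 at 3.99 ± 1.02 and DHX58 at 3.29 ± 0.470. The last 4 lay within about 1 spread of their neighbours, and TLR3 (0.619 ± 0.207), IFNB1 (0.0976 ± 0.0218) and ZBP1 (0.0196 ± 0.0277) followed. In oeSRPK1, DDX58 at 67.1 ± 6.56 RPKM came next to IFI16 at 80.7 ± 6.97, ahead of IFIH1 at 36.8 ± 2.08 and MAVS at 25.0 ± 2.01. STING1 at 12.2 ± 0.326 and DHX58 at 9.39 ± 0.441 came after these, then TLR3 at 2.59 ± 0.0237, IFNB1 at 1.05 ± 0.213 and ZBP1 at 0.409 ± 0.105. In shSRPK1 the levels were 76.5 ± 12.8 for IFI16, 49.3 ± 27.4 for DDX58, 27.7 ± 14.5 for IFIH1, 22.3 ± 1.18 for MAVS, 10.3 ± 3.02 for DHX58 and 8.12 ± 0.882 for STING1, with 0.833 ± 0.511 for TLR3, 0.577 ± 0.443 for IFNB1 and 0.0987 ± 0.0606 for ZBP1. There DDX58 overlapped IFI16, IFIH1 and MAVS within its spread, as DHX58 did STING1 and TLR3 did IFNB1. The 2 sensors upstream of MAVS went from below their adaptor in NT to above it in both oeSRPK1 libraries.

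Counts of calls in lists of other pathway genes are set beside the shares over all genes tested. Of 25 kinases and transcription factors below the adaptors, 4 rose and 0 fell in shSRPK1 against NT, and 7 rose and 1 fell in oeSRPK1, with median log2 fold changes of 0.20 and 0.34. Over all genes 5.43% rose and 3.75% fell in shSRPK1, and 11.2% rose and 9.45% fell in oeSRPK1. The factor IRF7, which is itself induced by interferon, stood at 8.16 and 11.6 CPM in NT, 62.7 and 88.0 CPM in shSRPK1 and 69.0 and 79.1 CPM in oeSRPK1. It rose by 2.92 ± 0.23 and 2.89 ± 0.23 on the log2 scale (edgeR adjusted p 0.00145 and 0.000454), and the kinase gene IKBKE (IKKε) by 0.80 ± 0.14 and 0.88 ± 0.14 (adjusted p 0.0191 and 0.00651). The AP-1 factor gene JUN rose by 0.78 and 0.46 (adjusted p 0.0114 and 0.0290). IRF3 and TBK1, the central factor and kinase, were named for their role: IRF3 differed by 0.20 and -0.16 (adjusted p 0.274 and 0.350) and TBK1 by -0.11 and -0.08 (adjusted p 0.566 and 0.661). The 1 gene that fell in oeSRPK1, named after its value was seen, was TBKBP1, a scaffold of TBK1, by 0.57 ± 0.17 (adjusted p 0.0487), where DESeq2 called 0 lower. In shSRPK1 2 of the 25 were lower at an unadjusted p under 0.05. Between the transfected groups TICAM1 was 0.90 ± 0.17 higher in oeSRPK1 (adjusted p 0.0112), the kinase RIPK1 0.73 ± 0.12 higher (adjusted p 0.00738) and TBKBP1 differed by -0.79 ± 0.17 (adjusted p 0.0161), 3 calls among 25, where 11.5% of all genes were called higher and 11.3% lower.

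Of 28 regulators of the RNA helicases and MAVS, 26 were tested; 6 rose and 2 fell in shSRPK1 and 8 rose and 1 fell in oeSRPK1, with medians of 0.09 and 0.17, beside 5.43% and 3.75%, and 11.2% and 9.45%, of all genes. DDX60, a helicase described as a partner of RIG-I, rose by 1.76 ± 0.19 in shSRPK1 (edgeR adjusted p 0.00396) and 2.28 ± 0.19 in oeSRPK1 (adjusted p 0.000526), and its relative DDX60L by 2.60 and 3.09. TRIM25, a ubiquitin ligase that acts on RIG-I, went from 162 and 157 CPM in NT to 252 and 396 CPM in shSRPK1 and 619 and 553 CPM in oeSRPK1. It rose by 1.02 ± 0.21 (adjusted p 0.0258) and 1.88 ± 0.21 (adjusted p 0.00166), and was 0.86 ± 0.20 higher in oeSRPK1 than in shSRPK1 (adjusted p 0.0229). RNF135 (Riplet), another ligase of RIG-I, named after its value was seen, fell by 0.88 ± 0.17 in oeSRPK1 (adjusted p 0.0114). The RNA-binding helicase DDX3X and the stress granule protein gene G3BP1, the 2 that fell in shSRPK1, did so by 0.61 and 0.54 (adjusted p 0.0202 and 0.0284). Both were higher in oeSRPK1 than in shSRPK1, by 0.86 ± 0.11 and 0.46 ± 0.11 (adjusted p 0.00333 and 0.0261), in a comparison where 3 of the 26 were called higher and 2 lower, shares at or under the 11.5% and 11.3% over all genes.

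Of 29 regulators of cGAS and STING, 25 were tested; 3 rose and 0 fell in each comparison with NT, with medians of -0.02 in shSRPK1 and 0.11 in oeSRPK1. The share that rose in oeSRPK1 is near that over all genes (11.2%; 5.43% in shSRPK1), so the count says nothing particular of this list. At an unadjusted p under 0.05, 1 was lower in shSRPK1 and 3 in oeSRPK1, and DESeq2 and limma-voom called 0 lower. The 3 that rose were SAMHD1, a nucleotide hydrolase that restricts reverse transcription, USP18, the negative regulator of interferon receptor signalling, and RHBDF2, a cofactor in STING trafficking. SAMHD1 rose by 2.30 ± 0.15 in shSRPK1 and 2.79 ± 0.15 in oeSRPK1 (edgeR adjusted p 0.00124 and 0.000294). USP18 rose by 2.68 ± 0.30 and 3.37 ± 0.30 (adjusted p 0.00637 and 0.00114). RHBDF2 rose by 0.90 ± 0.21 and 0.83 ± 0.21 (adjusted p 0.0384 and 0.0306). TREX1, the nuclease that clears cytosolic DNA, had 0 reads, but 100% of its exon bases lie inside ATRIP in GENCODE 29, so its count says nothing of its expression. Between the transfected groups 3 of the 25 were called higher in oeSRPK1 and 2 lower, near or under the 11.5% and 11.3% over all genes.

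Of 36 other sensors of RNA and DNA, 31 were tested; 8 rose and 0 fell in shSRPK1, and 9 rose and 3 fell in oeSRPK1, with medians of 0.02 and 0.17, beside 5.43% higher and 3.75% lower, and 11.2% and 9.45%, over all genes. At an unadjusted p under 0.05, 2 were lower in shSRPK1, where DESeq2 and limma-voom also called 0 lower. The genes that rose most belong to the OAS family, of which OAS1, OAS2 and OAS3 make the activator of RNase L on double-stranded RNA. OAS1 was at 15.9 and 27.8 CPM in NT, 292 and 393 CPM in shSRPK1 and 371 and 329 CPM in oeSRPK1, a rise of 3.96 ± 0.29 and 3.99 ± 0.29 (edgeR adjusted p 0.00183 and 0.000542). AIM2, which binds cytosolic DNA and starts an inflammasome, differed more between the plasmids: it stood at 3.59 and 4.66 CPM in NT, 10.5 and 11 CPM in shSRPK1 and 25.6 and 25.1 CPM in oeSRPK1. AIM2 rose by 1.36 ± 0.19 (adjusted p 0.00940) and 2.61 ± 0.19 (adjusted p 0.000397), and oeSRPK1 exceeded shSRPK1 by 1.24 ± 0.17 (adjusted p 0.00376). UNC93B1, the chaperone of the endosomal receptors, TLR3 among them, rose by 1.19 ± 0.13 and 1.31 ± 0.13 (adjusted p 0.00396 and 0.000976). The 3 genes that fell in oeSRPK1, named after their values were seen, were the DNA repair genes PRKDC (by 0.96) and MRE11 (by 0.59) and the RNA polymerase III subunit gene POLR3E (by 0.69), with adjusted p of 0.00947, 0.0223 and 0.0151, a share near that of all genes called lower. Between the transfected groups 3 of the 31 were called higher and 1 lower in oeSRPK1, under the shares over all genes. 

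**Figure D4:**
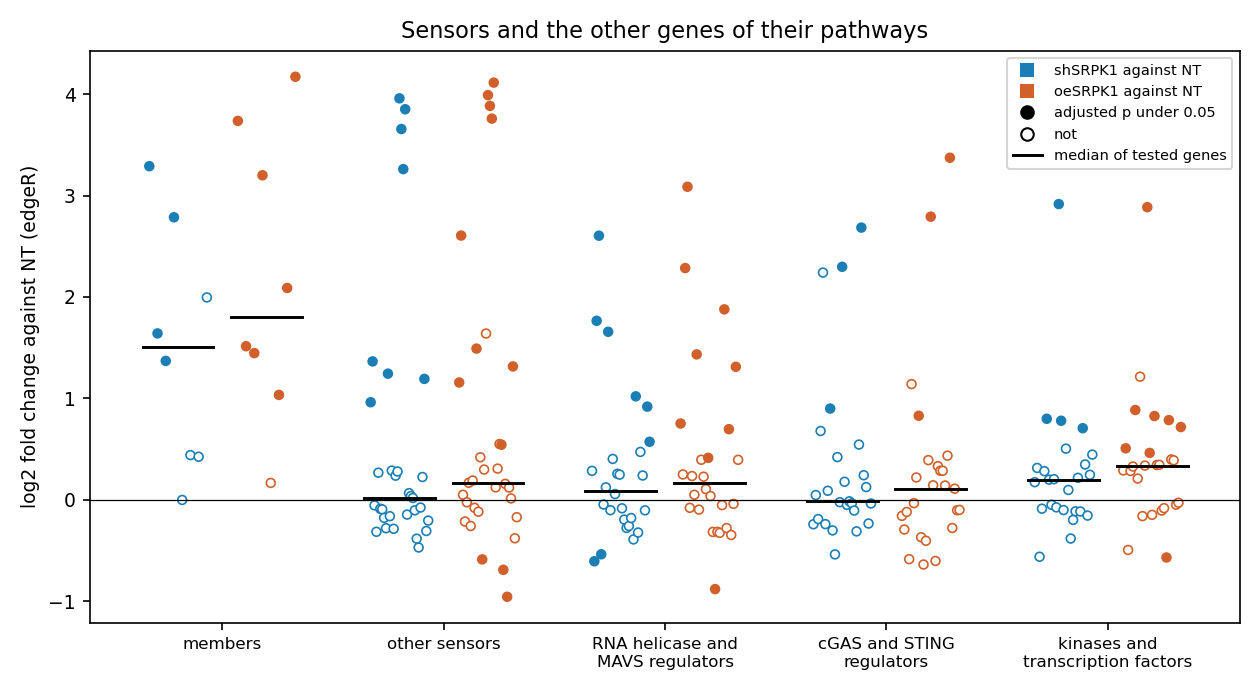
Log2 fold changes against NT of the tested genes among the sensors and adaptors described here (members) and 4 lists of other pathway genes, blue for shSRPK1 and orange for oeSRPK1, filled where the adjusted p is under 0.05, with a bar at the median. The members' medians are 1.50 and 1.80, while those of the 4 lists lie between -0.02 and 0.34, with a few genes such as IRF7, USP18 and the OAS genes far above.

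Of 11 genes that IRF3 is known to switch on directly, 6 rose in shSRPK1 and 7 in oeSRPK1 against NT, 0 fell (0 also at an unadjusted p under 0.05 and in DESeq2 and limma-voom), and the medians were 3.71 and 3.95, while 5.43% and 11.2% of all genes rose and 3.75% and 9.45% fell. ISG15, which encodes a ubiquitin-like modifier, stood at 31.3 and 50.1 CPM in NT, 262 and 288 CPM in shSRPK1 and 597 and 667 CPM in oeSRPK1. It rose by 2.75 ± 0.22 (edgeR adjusted p 0.00156) and 3.95 ± 0.23 (adjusted p 0.000294). The chemokine gene CCL5 had 2 and 3 reads in NT, 36 and 30 reads in shSRPK1 and 122 and 23 reads in oeSRPK1. CCL5 passed the filter through the transfected groups, where it is high, so its edgeR values against NT are a description only. These were log2 fold changes of 3.71 ± 0.39 (adjusted p 0.00396) and 4.73 ± 0.37 (adjusted p 0.000454), and the counts of 6 and 7 include the gene. ISG15 and CCL5 were the 2 of the 11 called between the transfected groups, higher in oeSRPK1 by 1.20 ± 0.21 and 1.02 ± 0.26 (adjusted p 0.00811 and 0.0278). In that comparison 11.5% of all genes tested were called higher, and DESeq2 called 1 of the 11 higher and limma-voom 4. OASL also stands among the other sensors, and ZC3HAV1 among the helicase regulators, and interferon raises most of these genes too.

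Over the 6 libraries, the profiles most like that of each sensor were found by the distance between log2 CPM centred on its mean, among tested genes whose log2 CPM averaged 1 or more. DDX58 was closest to IFIT3 (distance 0.49), MX2 and OAS2, and IFIH1 to USP18 (0.33), DDX60L and HELZ2. DHX58 was closest to THEMIS2 (0.19), NLRC5 and ZCCHC2, and IFI16 to EIF2AK2 (0.22), the gene of the RNA-activated kinase PKR, then PHF11 and SHFL. TLR3 lay nearest to GDF15 (0.36), SYNE1 and ATF3, with GDF15 called higher in oeSRPK1 against NT (2.18 ± 0.44, edgeR adjusted p 0.0250) and not in shSRPK1 (0.53 ± 0.43, adjusted p 0.463). GDF15 was picked for its likeness to TLR3 in these same libraries, so its values are a description and lend no support. STING1 lay nearest to OXSR1 (0.10), CALHM5 and GOLPH3L, and MAVS to STAU1 (0.06), PTK2 and PPIL4. ZBP1 lay nearest to TREM1 (0.74) and CXCL8. Among the 8 sensors and adaptors DHX58 and IFI16 were the closest pair (0.38), followed by DDX58 and IFIH1 (0.69). Distances over 6 libraries in 3 groups are a description and were not tested.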

How the data were processed

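Poly(A) RNA of 6 T98G libraries had been sequenced as paired reads. The authors' deposited values were raw read counts per gene, whole numbers, with a table for each library. Per the submitters' processing notes, FastQC, Trimmomatic, STAR 2.5.3 and hg38 were used; the counting tool, annotation release and strand setting are not given in the sources used here, so reads of overlapping genes cannot be separated. Entries that name no gene (no feature, 8.13% to 11.1% of all entries; ambiguous, 3.04% to 3.37%; aligned to several places, 11.95% to 13.1%) were left out. Symbols came from a gene table for 56321 ids and from GENCODE 29 for 432; 3730 had none.

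In R 4.3.3, filterByExpr (minimum count 10, minimum total 15) kept 14732 genes with at least 99.8% of gene reads. edgeR 4.0.16 (TMM, glmQLFit robust, glmQLFTest) was fitted to all 6 libraries, with Benjamini-Hochberg adjustment over all genes tested and a call at an adjusted p under 0.05. Read ratios of ZBP1 and IFNB1 have exact 95% intervals for counting error only. Floors are 3 reads scaled by library size and carry no interval. The labels name replicates but not separate cultures, so the p-values rest on a spread between these samples that may be technical; with 2 against 2, an exact two-sided permutation test cannot go below 0.333. The steps were tested on simulated data. Alternatives were DESeq2 size factors, DESeq2 1.42.0, limma-voom (limma 3.58.1), no filter, a filter of CPM 1 in 2 libraries, only the libraries compared, a replicate block, and omission of each library in turn (a group left with 1 library takes its spread from the others).

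The 10 genes and the lists were chosen with earlier results of these data known. From each list up to 4 called genes with the smallest adjusted p in a comparison were eligible to be named, and 3 nearest profiles per gene; exceptions are stated where they stand. A further promoter motif that was searched is not reported here.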

Additional observations from a re-analysis of the deposited data

How the results depend on the processing

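The number of calls depended on which libraries were fitted. When each library was left out in turn, the number of the 10 genes called ranged from 0 to 6 in shSRPK1 against NT, 2 to 8 in oeSRPK1 against NT and 0 to 4 in oeSRPK1 against shSRPK1, and that of all genes from 29 to 4595, 293 to 6415 and 144 to 6152. In fits that tested 9 of the 10 genes, IFNB1 had entered through its reads in transfected libraries. The highest counts against NT include it and are a description only. Fitting only the libraries compared called 1 and 0 of the 10 in shSRPK1 against NT and oeSRPK1 against shSRPK1, and 129, 6331 and 1505 of all genes. Without a filter 2616 genes were called in shSRPK1 against NT, from a main count of 1352. The replicate numbers did not pair the libraries (correlations of same-numbered deviations 0.0104, -0.0186 and 0.0235), and the fit with the replicate block changed no call of the 10 genes (4, 7 and 3) and gave 1006, 2639 and 2846 of all genes. Only log2 fold changes uncalled in the fit to all libraries changed sign. MAVS in shSRPK1 against NT was 0.0035 without a filter, 0.0010 under the stricter filter and -0.0546 to 0.0524 with a library left out, and TLR3 there -0.36 to 0.98. In oeSRPK1 against shSRPK1, leaving out a library gave -0.0632 to 1.13 for DDX58, -0.0728 to 1.04 for IFIH1, -0.43 to 0.17 for DHX58 and -0.12 to 0.22 for IFI16. The cause of these changes was not tested beyond the libraries left out. DESeq2 size factors and limma-voom changed no call of the 8 genes, and DESeq2 lost that of ZBP1 between the transfected groups (adjusted p 0.0812; 0.00213 to 0.367 over all alternatives). Depth limits IFNB1, ZBP1 and the lambda interferons, above all in oeSRPK1 2.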
